A study of Mus musculus with 18 samples.

Results

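The genes described here are 9 clock output genes of the mouse liver: Dbp, Tef, Hlf, Nfil3, Ciart, Usp2, Wee1, Bhlhe40 and Bhlhe41. They were chosen by gene symbol, with no measured value in the rule, from the 54532 genes of the deposited expression table, and each symbol matched 1 gene. Earlier results of these data were known when the genes were chosen. The table holds bulk liver RNA-seq of 18 male C57BL/6J mice in 3 groups of 6. Mice on normal chow formed the normal control (NC) group, and mice on a high-fat diet that received saline formed the HFD group. Mice of the SZ-A group stayed on the high-fat diet and received SZ-A, the Ramulus Mori (Sangzhi) alkaloids, an extract of mulberry twigs rich in iminosugars such as 1-deoxynojirimycin. By the deposited description the diet ran for 14 weeks before 8 weeks of saline or SZ-A; the study's methods give a shorter treatment, and neither source used here names the dose of the sequenced mice. Mice were 6 weeks old at the start, were housed under a light/dark cycle and were fasted overnight before euthanasia. The time of day at which livers were collected is not given in the sources used here. Mouse NC6 carries a diet label of high-fat diet against its title and was kept in NC.

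The circadian clock is a feedback loop in which CLOCK and BMAL1 bind E-boxes in DNA and drive the genes of their own repressors, the PER and CRY proteins. Clock output genes carry this rhythm to the tissue. DBP, TEF and HLF are PAR bZIP activators that bind D-boxes, and NFIL3 (also E4BP4) is a bZIP repressor of the same sites that peaks at the opposite phase. In liver the PAR bZIP factors are known for driving genes of drug and bile acid metabolism. CIART (CHRONO), BHLHE40 (DEC1) and BHLHE41 (DEC2) repress CLOCK and BMAL1 at E-boxes. USP2 is a deubiquitinase, and WEE1 is a kinase that holds back entry into mitosis.

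Promoter sequences are shown for the genes whose windows hold the letters of the E-box, the site of CLOCK and BMAL1, or of the core of the ROR element, a further site of clock factors. Windows of 250 bases before the start were taken from RefSeq (GRCm38.p6), and 7 of the 9 genes matched, with 8 windows in all since Tef has 2. Wee1 and Bhlhe40 are named only. RefSeq and GENCODE starts differ. GENCODE exons cover all 250 bases of the upstream Tef window, 159 bases for Dbp, 138 for Bhlhe41, 34 for Nfil3 and 23 for Ciart. The upstream Tef E-box and the Nfil3 match therefore lie within exons as GENCODE draws them. The downstream Tef E-box lies outside exons but also within the span of the gene. Both strands were searched for the E-box CACGTG, for the D-box as TTATGTAA, TTACATAA or TTACGTAA, and for the core of the ROR element as AGGTCA or TGACCT. An E-box was present in 4 of the 8 windows, from 3 genes (Ciart, Tef and Bhlhe41), against 6.02% of all 32851 windows of the same length. The Ciart window held 3 E-boxes, as did 0.061% of all windows at 3 or more. No D-box was present in the 8 windows, against 0.93% of all windows. The ROR core was present in 1 window, that of Nfil3, against 14.02% of all windows. Matches are in capitals below, each line runs 5′ to 3′ on the strand of its gene, and the Ciart line is the whole window (chr3:95882229-95882478, minus strand) with E-boxes that begin 116, 58 and 44 bases before the start.
Ciart: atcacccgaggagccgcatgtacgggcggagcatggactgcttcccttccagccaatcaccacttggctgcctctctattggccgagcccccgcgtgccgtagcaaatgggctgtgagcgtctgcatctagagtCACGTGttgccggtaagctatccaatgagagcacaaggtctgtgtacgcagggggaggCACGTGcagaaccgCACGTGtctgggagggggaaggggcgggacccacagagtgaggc
The 30 bases around the single sites of the other 3 genes are chr15:81802534-81802563 and chr15:81811264-81811293 for Tef (plus strand), chr6:145865556-145865585 for Bhlhe41 (minus strand) and chr13:52981040-52981069 for Nfil3 (minus strand).
Tef, upstream start: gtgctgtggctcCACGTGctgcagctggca
Tef, downstream start: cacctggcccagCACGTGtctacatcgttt
Bhlhe41: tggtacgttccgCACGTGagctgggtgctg
Nfil3: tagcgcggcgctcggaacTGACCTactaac

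Libraries held 17163191 to 20493907 fragments on genes, worked back from the FPKM (fragments scaled to gene length and library size). The hepatocyte markers Alb, Ttr, Apoa1, Apob, Serpina1c and Hnf4a summed to 23541 FPKM or more in every library. Alb had the largest group means (21469 to 29448 FPKM) and Hnf4a the smallest (153 to 184 FPKM). No T or B cell marker reached a mean of 1 FPKM. NC5 and SZ-A5 stood apart from their groups over all 10216 genes with a mean of at least 1 FPKM: NC5 was the lowest of its 6 mice in 30.8% and the highest in 33.6% of genes, and SZ-A5 in 24.6% and 24.5%. Their median correlations with the other mice of their group were 0.953 each, against 0.967 to 0.980 for the other 16 mice. Their depth (17366205 and 17191725 fragments) lay at the low end of the range. Where leaving out one of these 2 mice changed a call or moved a fold change of the 9 genes by over 1.5 times, the value without it is given. In bulk liver, fewer cells of a type and less RNA per cell cannot be told apart.

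Of the 9 genes, 8 had a mean of at least 1 FPKM over the 18 mice and entered the test; Bhlhe41 (0.447 FPKM) did not. Since FPKM is scaled to gene length, levels can be set beside each other. In NC livers Tef was highest (14.5 ± 5.41 FPKM, mean ± SD, n = 6 as for all groups), followed by Nfil3 (12.4 ± 5.38), Bhlhe40 (8.70 ± 3.78), Hlf (8.32 ± 1.78) and Dbp (7.42 ± 5.49). Usp2 (3.12 ± 2.89), Ciart (1.51 ± 1.63), Wee1 (1.055 ± 0.550) and Bhlhe41 (0.292 ± 0.216) were lower, and of the neighbours in this order Wee1 and Bhlhe41 alone were further apart than the larger of their SDs. In HFD livers Dbp moved from the fifth to the first place (24.8 ± 4.72 FPKM), before Tef (22.1 ± 4.02) and Bhlhe40 (19.6 ± 7.37), and SZ-A livers had all 9 genes in the same order as HFD livers. In both groups Bhlhe40 and Nfil3, and Ciart and Bhlhe41, were the neighbours further apart than the larger of their SDs. The genes varied strongly between mice of a group. The within-group SD on the log2 scale was 1.51 for Ciart, larger than in 99.4% of the 10216 genes, and 1.01 for Dbp, larger than in 98.4%. Hlf varied least, with an SD of 0.36, still larger than in 81.7% of genes.

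**Figure D1:**
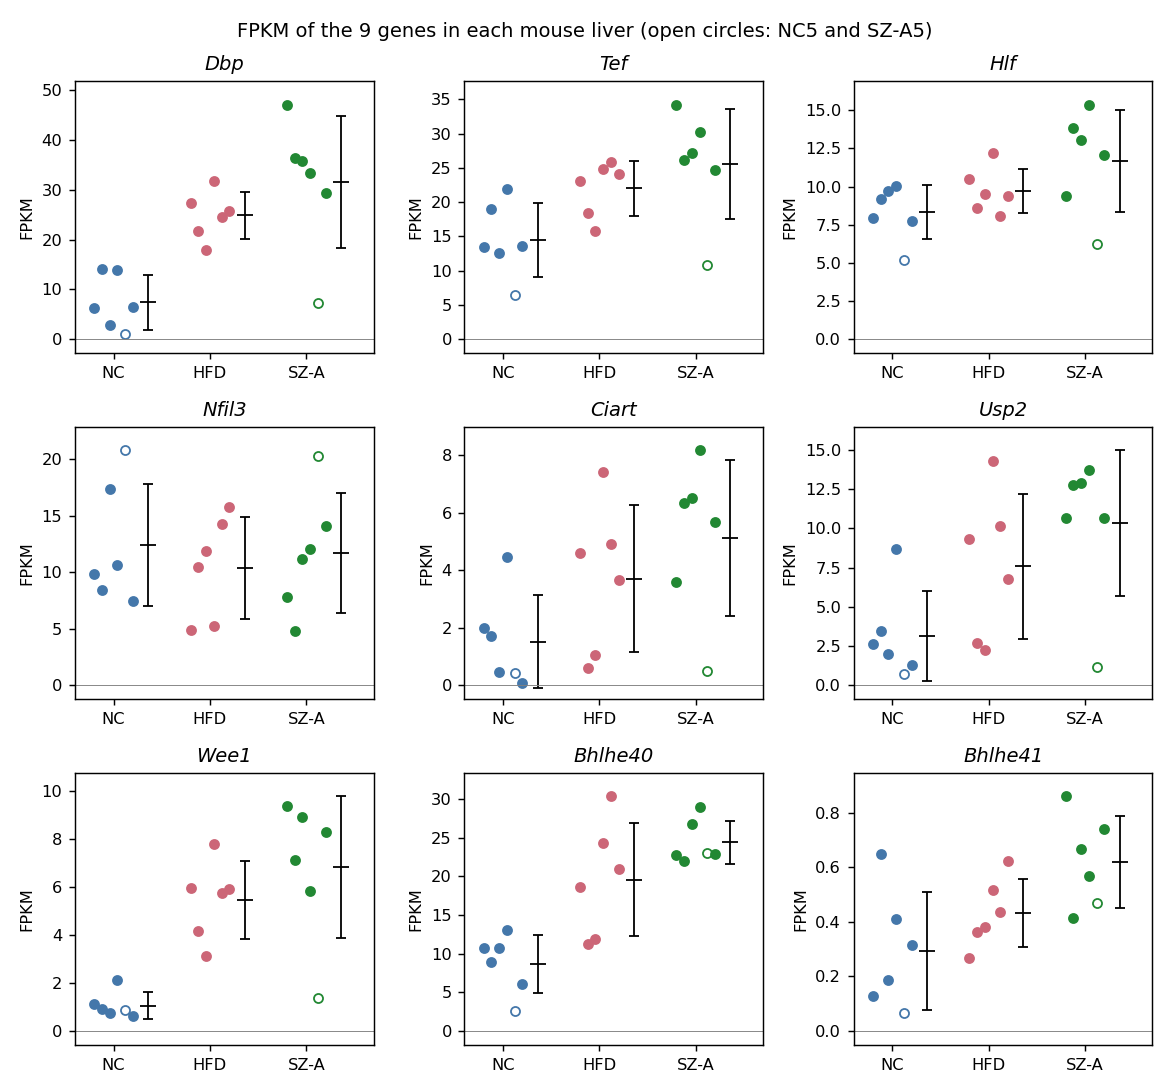
FPKM of the 9 genes (y axis, linear) in each liver of the NC, HFD and SZ-A groups (x axis); points are single mice, the bar beside each group is the mean ± SD of 6 mice, and open circles are NC5 and SZ-A5. Dbp and Wee1 of the 6 HFD mice lie above all 6 NC mice, and SZ-A5 lies far below the other SZ-A mice for Dbp, Tef, Ciart, Usp2 and Wee1.

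The first comparison asks how the high-fat diet changed these genes. Wee1, Dbp and Bhlhe40 were higher in HFD than in NC livers, Tef, Usp2, Ciart and Hlf had positive fold changes that did not pass the test, and Nfil3 had a negative one. Calls were made with limma at a Benjamini-Hochberg adjusted p under 0.05 over all 10216 genes and a fold change over 1.2. Fold changes are differences in mean log2(FPKM + 0.1) and understate the change of low genes. By this rule 3 of the 8 tested genes were called higher and 0 lower, against 10.7% of all tested genes called higher and 9.49% called lower. Of all calls 53% were higher as deposited and 86.4% under a common sum per mouse, with 4 of the 8 genes called higher in that setting (Tef in addition). The median log2 fold change of the 8 genes was 1.31, against -0.03 for all genes. The groups did not overlap for Dbp and Wee1, with the HFD mice higher, as in 5.48% of all tested genes.

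Among the PAR bZIP activators, Dbp reached 0.990, 6.39 and 14.0 FPKM in the NC group (lowest, median and highest mouse) and 17.96, 25.1 and 31.7 FPKM in the HFD group. All 6 HFD mice were above all 6 NC mice, and the log2 fold change was 2.17 (SE 0.52, limma adjusted p = 0.00991), a 4.50-fold difference with a 95% interval of 2.08 to 9.73. Without NC5, the lowest mouse, it was 1.71 (adjusted p = 0.00534). Dbp shares 737 bases with the antisense gene Sphk2, and whether the counting used strand is not stated. Sphk2 differed in the opposite direction, with 12.2 FPKM in HFD and 17.0 FPKM in NC livers (log2 fold change -0.51, SE 0.16, limma adjusted p = 0.0357).

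Tef, the second activator, ranged from 6.41 over a median of 13.5 to 21.9 FPKM in NC and from 15.9 over 23.7 to 25.9 FPKM in HFD livers. The groups overlapped, with 4 HFD mice above every NC mouse, and the log2 fold change of 0.68 (SE 0.24) did not pass (limma adjusted p = 0.0638). It passed when FPKM were scaled to a common sum per mouse (0.87, adjusted p = 0.0265) and without NC4 (0.81, adjusted p = 0.0310). Hlf ranged from 5.22 over 8.59 to 10.1 FPKM in NC and from 8.10 over 9.46 to 12.2 FPKM in HFD livers, and its log2 fold change was 0.24 (SE 0.15, limma adjusted p = 0.286). Nfil3, the repressor of the same sites, ranged from 7.48 over 10.2 to 20.8 FPKM in NC and from 4.86 over 11.1 to 15.7 FPKM in HFD livers. The ranges overlapped, with HFD1 and HFD4 below every NC mouse and NC3 and NC5 above every HFD mouse, and the log2 fold change was -0.29 (95% interval -1.01 to 0.43, limma adjusted p = 0.574). Without NC5 the log2 fold changes were 0.46 for Tef, 0.11 for Hlf and -0.12 for Nfil3 (adjusted p = 0.0688, 0.492 and 0.822).

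Wee1, the mitotic inhibitor kinase, had the smallest p of the 8 tested genes. Its level was 0.604, 0.877 and 2.12 FPKM in the lowest, median and highest NC mouse and 3.10, 5.84 and 7.78 FPKM in the HFD group. The groups did not overlap, and the log2 fold change was 2.32 (SE 0.27, limma adjusted p = 0.000152), a 4.98-fold difference with a 95% interval of 3.33 to 7.45. Bhlhe40, a repressor of CLOCK and BMAL1, ranged from 2.599 over 9.82 to 13.1 FPKM in NC and from 11.3 over 19.8 to 30.4 FPKM in HFD livers. HFD2 and HFD3 lay within the NC range and the other 4 HFD mice above it. The log2 fold change was 1.24 (SE 0.36, limma adjusted p = 0.0281), and the call was lost without NC6, HFD1, HFD4, HFD5 or HFD6, each left out alone (adjusted p = 0.0502 to 0.0605).

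The remaining clock repressors and the deubiquitinase differed less clearly. Ciart ranged from 0.0703 over 1.08 to 4.45 FPKM in NC and from 0.577 over 4.12 to 7.41 FPKM in HFD livers; the lowest value, in NC6, rests on 3 fragments. HFD2, HFD3 and HFD6 were within the NC range, and the log2 fold change of 1.54 had an SE of 0.78 (limma adjusted p = 0.179). Usp2 ranged from 0.731 over 2.29 to 8.70 FPKM in NC and from 2.25 over 8.04 to 14.3 FPKM in HFD livers. HFD2, HFD3 and HFD6 were again within the NC range, and the log2 fold change was 1.38 (SE 0.56, limma adjusted p = 0.0984, or 0.0323 without NC4). Bhlhe41 ranged from 0.0643 over 0.251 to 0.649 FPKM in NC and from 0.268 over 0.407 to 0.622 FPKM in HFD livers. Its difference of 0.59 in mean log2(FPKM + 0.1) did not pass a two-sided exact permutation test over the 12 mice (p = 0.132, adjusted p = 0.132 over the 3 comparisons; the smallest p such a test can give is 0.00217), and was 0.37 without NC5.

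Marker levels also differed between NC and HFD livers. The summed hepatocyte markers ran from 36995 to 55196 FPKM in NC and from 23541 to 41734 FPKM in HFD livers, and the endothelial markers from 48.4 to 62.6 and from 53.3 to 67.4 FPKM. The summed Kupffer cell markers had medians of 125 FPKM in NC and 202 FPKM in HFD livers, with 6 of 6 markers at a mean of at least 1 FPKM. The stellate cell markers had medians of 12.2 and 21.4 FPKM (6 of 6 markers), and their ranges, 8.48 to 13.2 and 12.7 to 29.4 FPKM, overlapped narrowly. The adipocyte list ranged from 0.0447 to 7.51 FPKM in NC and from 20.1 to 135 FPKM in HFD livers, and 1 of its 4 genes, Cfd, gave nearly all of that sum. The defining adipocyte genes Adipoq, Plin1 and Lep stayed at means of 0.202 FPKM or less in NC and 0.0913 FPKM or less in HFD livers. The part of these cell types in the differences above was not tested.

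**Figure D2:**
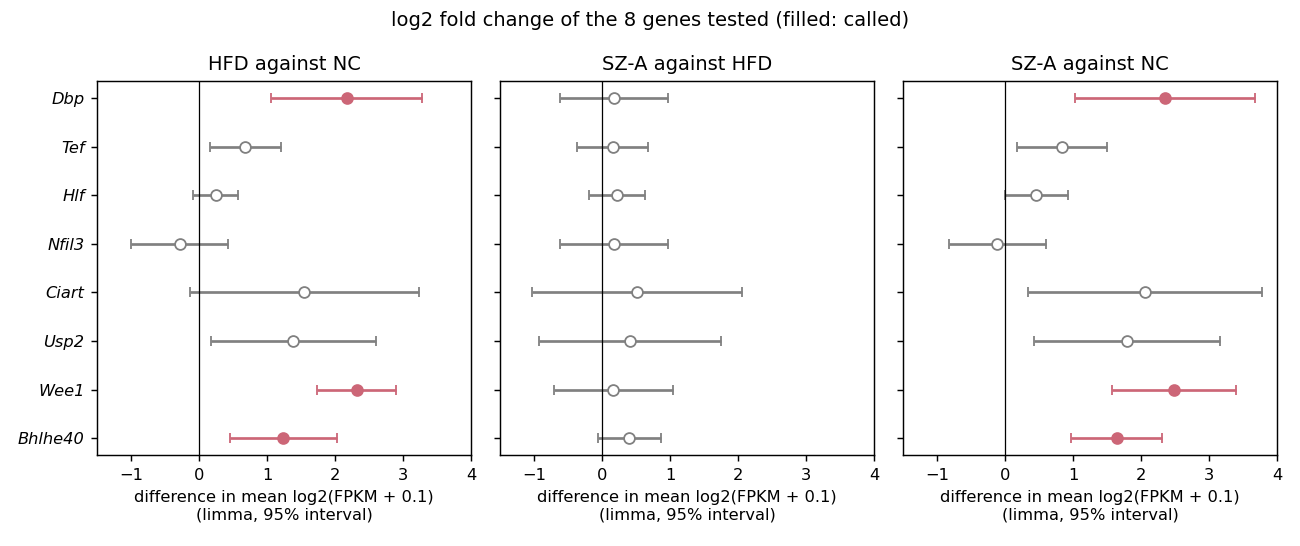
Difference in mean log2(FPKM + 0.1) (x axis) of the 8 tested genes (y axis) in the 3 comparisons, with limma 95% intervals; filled points were called. Dbp, Wee1 and Bhlhe40 were called in both comparisons with NC, and every interval of SZ-A against HFD includes 0.

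The second comparison asks what SZ-A changed on the high-fat diet. None of the 8 tested genes was called between SZ-A and HFD livers with limma, 0 had an unadjusted p under 0.05, and voom on whole fragments also called 0. Over all tested genes 0.0783% were called higher and 0.0685% lower, so few genes passed this test in either direction. The study tested counts with DESeq2 at the same thresholds and reported many more genes between these groups. All 8 log2 fold changes were positive, but 4 of 8 (Dbp, Tef, Nfil3 and Wee1) were negative when FPKM were scaled to a common sum per mouse. That scaling moved the median of all genes by -0.17 and the share of higher calls among all calls from 53.3% to 4.59%, and all 8 genes stayed above this median. The median log2 fold change of the 8 genes was 0.19, against 0.03 for all genes. A p that misses the threshold does not show equal levels, and the intervals were wide.

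In SZ-A livers Dbp was 7.22 FPKM in the lowest mouse, 34.6 at the median and 47.1 in the highest. Of the 6 SZ-A mice 4 were above every HFD mouse and SZ-A5 was below all of them, and the log2 fold change was 0.17 (95% interval -0.62 to 0.96, limma adjusted p = 0.869). Without SZ-A5 it was 0.56 (adjusted p = 0.108). Tef ranged from 10.8 over 26.7 to 34.2 FPKM, with a log2 fold change of 0.15 (95% interval -0.37 to 0.67, limma adjusted p = 0.814, or 0.38 and 0.199 without SZ-A5). Hlf ranged from 6.23 over 12.6 to 15.4 FPKM, with a log2 fold change of 0.22 (95% interval -0.20 to 0.63, limma adjusted p = 0.640, or 0.38 and 0.191 without SZ-A5). Nfil3 ranged from 4.83 over 11.6 to 20.3 FPKM, and SZ-A5 was its highest mouse. The log2 fold change of Nfil3 was 0.17 (95% interval -0.62 to 0.96, limma adjusted p = 0.871) and became -0.015 without SZ-A5 and -0.019 without HFD1.

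Bhlhe40 had the smallest p of the 8 genes in SZ-A against HFD livers. Its 6 SZ-A mice lay close together, from 22.1 over 23.0 to 28.95 FPKM, inside the upper part of the HFD range, and SZ-A5 (23.1 FPKM) did not stand apart. The log2 fold change was 0.40 (95% interval -0.07 to 0.87, limma adjusted p = 0.416). Wee1 ranged from 1.37 over 7.73 to 9.37 FPKM, and Usp2 from 1.18 over 11.7 to 13.8 FPKM, with SZ-A5 lowest for both. Ciart ranged from 0.481 over 5.99 to 8.17 FPKM, again with SZ-A5 lowest. The log2 fold changes of these 3 genes were 0.16, 0.41 and 0.51, with limma adjusted p from 0.785 to 0.887. Without SZ-A5 they were 0.57, 0.95 and 1.07 (adjusted p = 0.214, 0.299 and 0.384 in the same order). Their 95% intervals reached from -0.71 to 1.04 for Wee1, from -0.93 to 1.74 for Usp2 and from -1.03 to 2.05 for Ciart. Bhlhe41 ranged from 0.412 over 0.618 to 0.860 FPKM, and 3 SZ-A mice were above every HFD mouse. Its difference of 0.44 did not pass the exact permutation test (p = 0.0541, adjusted p = 0.0812), and did so without HFD6 (0.53, 0.0390) or without SZ-A2 (0.53, 0.0422).

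The third comparison sets SZ-A against NC livers. It shares its mice with the other comparisons, so its values are not independent of them. Bhlhe40, Wee1 and Dbp were called higher and 0 genes lower, against 5.31% of all tested genes called higher and 4.3% called lower. The median log2 fold change of the 8 genes was 1.71, against -0.0063 for all genes. For Bhlhe40 all 6 SZ-A mice (22.1 to 28.95 FPKM) were above all 6 NC mice (2.599 to 13.1 FPKM), as in 2.83% of all tested genes. Its log2 fold change was 1.64 (SE 0.31, limma adjusted p = 0.00666). Wee1 had a log2 fold change of 2.48 (SE 0.42, limma adjusted p = 0.00390), and 5 of 6 SZ-A mice were above every NC mouse, the exception being SZ-A5. Dbp had a log2 fold change of 2.34 (SE 0.61, limma adjusted p = 0.0300), again with 5 of 6 mice above every NC mouse. The Dbp call was lost without NC1, NC3, SZ-A1, SZ-A2, SZ-A3, SZ-A4 or SZ-A6, each left out alone (adjusted p = 0.0501 to 0.0672).

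Usp2 (1.79, SE 0.64, limma adjusted p = 0.0942), Tef (0.83, SE 0.31, adjusted p = 0.106), Ciart (2.06, SE 0.80, adjusted p = 0.123) and Hlf (0.45, SE 0.21, adjusted p = 0.203) did not pass between SZ-A and NC livers. These calls turned on SZ-A5. Without it all 4 passed (adjusted p = 0.00748, 0.0184, 0.0286 and 0.0345 in the same order), and 7 of the 8 genes were called. Usp2 also passed without NC4 (2.16, adjusted p = 0.0478). With NC5 also left out the same 7 were called. Nfil3 was not called in either case, and its log2 fold change of -0.12 (95% interval -0.83 to 0.59, limma adjusted p = 0.869) changed sign without NC5 (0.049) or without SZ-A2 (0.11) and was -0.30 without SZ-A5. Bhlhe41 differed by 1.02 in mean log2(FPKM + 0.1) between SZ-A and NC livers (exact permutation p = 0.0173, adjusted p = 0.0519 over the 3 comparisons), so it did not pass. It passed without NC2 (1.25, exact adjusted p = 0.00649), NC4 (1.14, 0.0455) or SZ-A2 (1.11, 0.0422), and between HFD and NC livers without NC2 (0.81, 0.0422).

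Single mice of a group differed widely. NC5 was the lowest NC mouse for 6 of the 9 genes and the highest for Nfil3 (20.8 FPKM), and SZ-A5 was likewise the lowest for 6 and the highest for Nfil3 (20.3 FPKM). The Dbp level divided by the Nfil3 level was 0.0476 in NC5 and 0.356 in SZ-A5, against 0.160 to 1.66 in the other NC mice and 2.08 to 7.55 in the other SZ-A mice. In HFD livers this ratio ran from 1.52 in HFD3 to 6.06 in HFD4. HFD3 was lowest in 4 genes and HFD4 highest in 5 of the HFD group. NC4 was highest in 6 genes of its group.

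**Figure D3:**
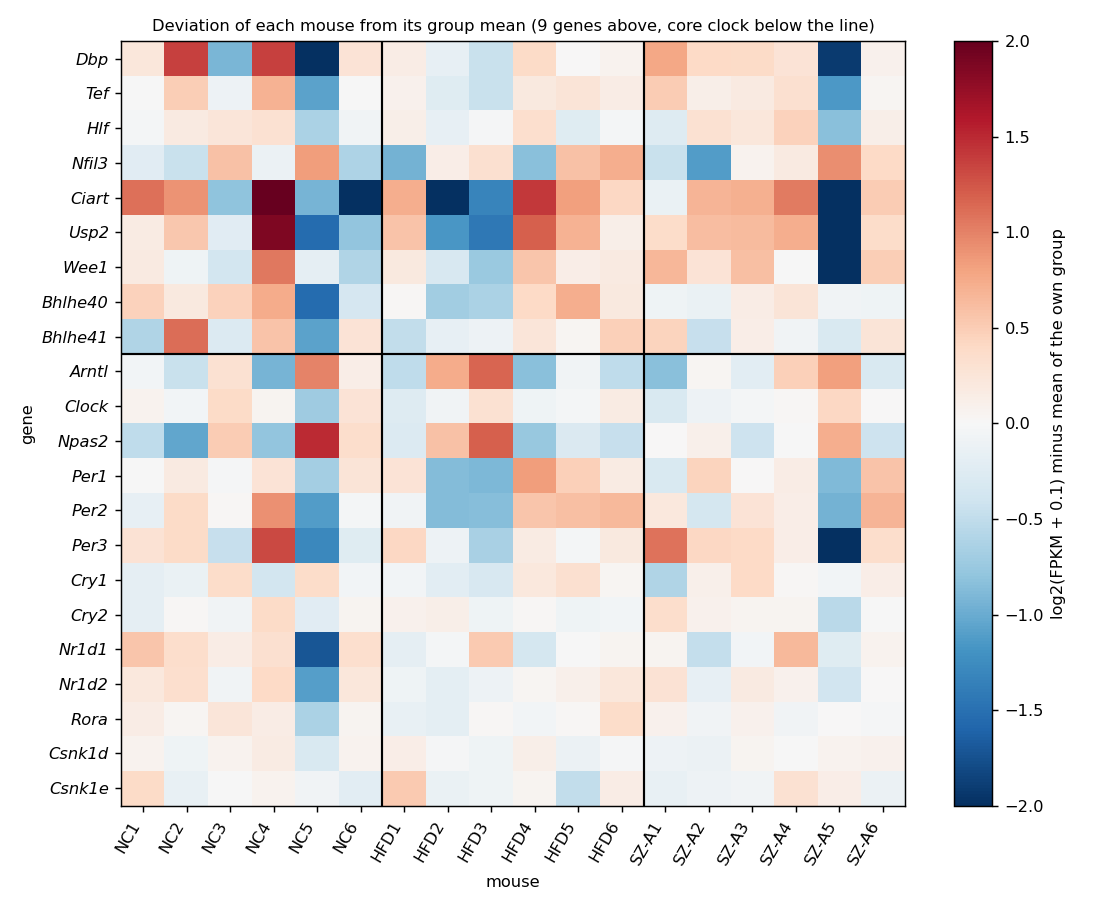
Heat map of log2(FPKM + 0.1) of each mouse (x axis) minus the mean of its own group for the 9 genes and, under the line, 13 core clock genes (y axis); the colour scale stops at 2 in both directions. NC5 and SZ-A5 are low for Dbp, Tef, Hlf, Usp2 and the Per genes and high for Nfil3, Arntl and Npas2.

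Single mice were also compared in core clock genes. The list was Arntl (BMAL1), Clock, Npas2, Per1, Per2, Per3, Cry1, Cry2, Nr1d1, Nr1d2, Rora, Csnk1d and Csnk1e. SZ-A5 was the highest SZ-A mouse for Arntl (0.920 FPKM, group median 0.445), Clock and Npas2, the activators of the loop. It was the lowest for Per1, Per2, Per3 (0.220 FPKM, group median 2.08), Cry2 and Nr1d2. In all, SZ-A5 was highest in 3 and lowest in 5 of the 13 genes, against 24.5% and 24.6% of all tested genes. SZ-A1 was highest in 4 and lowest in 4, against 16.9% and 18.6%. NC5 was the highest NC mouse for Arntl (2.79 FPKM, group median 1.39) and Npas2, and the lowest for 9 of the 13 genes, among them Clock (2.84 FPKM, group median 4.93), for which SZ-A5 was highest, and Per1, Per2, Per3 (0.0771 FPKM, group median 0.348), Nr1d1 and Nr1d2. In the HFD group HFD3 was the highest for Arntl (group median 0.323 FPKM), Clock, Npas2 and Nr1d1 and the lowest for Per1, Per3 (0.971 FPKM, group median 1.66) and Cry1.

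Within groups most pairs of clock output genes other than Nfil3 varied together, and Nfil3 passed the test against Dbp and Tef alone. For each pair of genes the deviations of log2(FPKM + 0.1) from the own group mean were correlated over the 18 mice, with a two-sided permutation test and Benjamini-Hochberg adjustment over the 36 pairs. All 28 pairs without Nfil3 had positive r, with a median of 0.67 and a range of 0.28 to 0.94, and all 8 pairs with Nfil3 had negative r, from -0.64 to -0.18. By this test 22 of 36 pairs passed, 20 without Nfil3 and 2 with it, and 16 passed with Spearman's rho. Nfil3 with Tef passed narrowly (r = -0.531, permutation adjusted p = 0.0496) and did not pass with rho (-0.416, adjusted p = 0.145). Fewer pairs passed without the 2 mice that stood apart: without SZ-A5 13 pairs passed, and without both NC5 and SZ-A5 8 passed. The 8 pairs were Ciart with Usp2, Wee1 and Bhlhe40, Usp2 with Wee1 and Bhlhe40, and Tef with Dbp, Usp2 and Wee1. No pair with Nfil3 passed without these 2 mice, the r of Nfil3 with Dbp was -0.447 (permutation adjusted p = 0.0992, n = 16), and its r with Bhlhe40 (0.170) and Bhlhe41 (0.122) was positive.

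Dbp and Tef gave the highest r (Pearson r = 0.941, Spearman rho = 0.831, n = 18, permutation adjusted p = 0.00036 and 0.00108; the raw p of r, 1e-05, is the smallest the resampling can give). Leaving out NC5 and SZ-A5, the mice farthest from the median of Dbp, r was 0.832 with group means of all mice and 0.807 with group means of the remaining mice. Within NC, HFD and SZ-A mice it was 0.963, 0.862 and 0.987. Ciart and Usp2 followed (r = 0.914, rho = 0.870, permutation adjusted p = 0.00132 and 0.00036, and r = 0.919 without the farthest mice, NC6 and SZ-A5). Usp2 and Wee1 had r = 0.885 and rho = 0.750 (permutation adjusted p = 0.00198 and 0.00837), and r = 0.854 without NC5 and SZ-A5. Dbp and Nfil3 had the lowest r (r = -0.642, rho = -0.738, permutation adjusted p = 0.00641 and 0.00162). It was -0.465 without NC5 and SZ-A5 with group means of all mice, and -0.843, -0.563 and -0.718 within NC, HFD and SZ-A mice. The r of Hlf with Dbp was 0.701 with the 2 mice, 0.180 without them with group means of all mice, and 0.0681 with group means of the remaining mice.

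**Figure D4:**
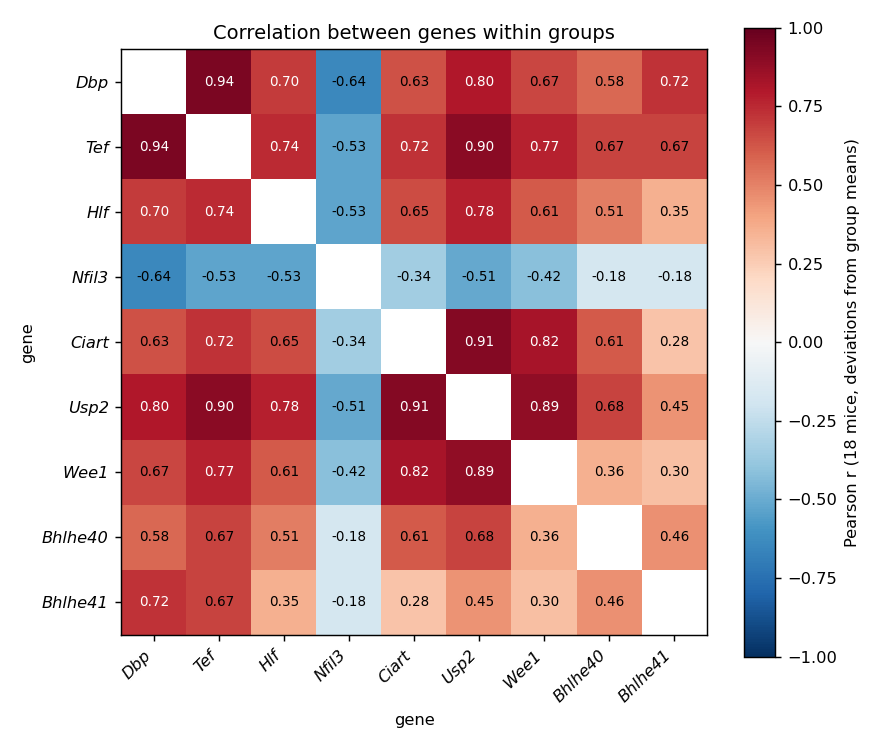
Pearson r between the 9 genes (both axes) over 18 mice, on deviations of log2(FPKM + 0.1) from group means; red is positive and blue negative. Every cell of the Nfil3 row is negative and every other cell is positive, with Dbp and Tef (0.94) the highest.

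Over all 10216 tested genes, Tef had the highest r with Dbp, while 24 genes exceeded the r of Usp2, 172 that of Hlf, 267 that of Wee1, 395 that of Ciart and 650 that of Bhlhe40. The 5 genes outside the list with the next patterns were Per3 (r = 0.891, rho = 0.831), Nr1d2 (0.876, 0.715), Zfp526 (0.873, 0.814), Slc25a23 (0.867, 0.804) and Slc9a3r1 (0.847, 0.769), each over 18 mice. Per3 is a clock repressor of the PER family, and Nr1d2 encodes the nuclear receptor REV-ERB beta. The lowest r with Dbp were those of Insig2 (-0.897), an inhibitor of SREBP processing, Rae1 (-0.871), Ptpn9 (-0.861), Cops6 (-0.832) and Clpx (-0.822). These genes were picked for their r from all tested genes, so the values describe them and carry no test. The ranks and r values of this paragraph include NC5 and SZ-A5 and are not given without them. NC5 and SZ-A5 were each the lowest mouse of their group for Per3, Nr1d2, Zfp526, Slc25a23 and Slc9a3r1. They were each the highest for Insig2, Rae1, Ptpn9, Cops6 and Clpx. How far these r values rest on NC5 and SZ-A5 was not tested.

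Of the core clock genes Per3 and Cry2 were higher and Clock was lower in HFD than in NC livers. Of 13 genes in the list 10 were tested, and Arntl, Npas2 and Csnk1e were below 1 FPKM. In HFD against NC livers 2 of 10 were called higher and 1 lower, against 10.7% and 9.49% of all tested genes, with a median log2 fold change of 0.0054. Per3 rose from 0.406 ± 0.316 to 1.62 ± 0.394 FPKM (log2 fold change 1.95, SE 0.36, limma adjusted p = 0.00241), and it passed the filter on low values only through the HFD and SZ-A groups, where it was high. Cry2, a repressor of the loop, rose from 3.57 ± 0.585 to 4.79 ± 0.304 FPKM (0.43, limma adjusted p = 0.00876). Clock fell from 4.87 ± 1.16 to 3.21 ± 0.469 FPKM (log2 fold change -0.56, limma adjusted p = 0.0276), a call lost under a common sum per mouse (-0.37, adjusted p = 0.180), while Nr1d2 at 0.61 (adjusted p = 0.0583) and Per2 at 0.89 (adjusted p = 0.0915) did not pass. In SZ-A against HFD livers 0 of 10 were called with limma and 0 had an unadjusted p under 0.05. The smallest p there were those of Csnk1d, Per1, Per2, Rora and Cry2 (log2 fold changes 0.12 to 0.54, adjusted p = 0.419 to 0.580). In SZ-A against NC livers Per2, Per3 and Cry2 were called higher and Clock lower, the last not under a common sum (adjusted p = 0.0755).

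Genes reported as targets of the PAR bZIP factors or of Nfil3 formed a second list of 14, of which 13 were tested. In HFD against NC livers 5 of 13 were called higher and 1 lower, against 10.7% and 9.49% of all tested genes, with a median log2 fold change of 0.38. Cyp2a5, a coumarin hydroxylase, rose from 98.4 ± 45.8 to 342 ± 84.0 FPKM (log2 fold change 1.91, SE 0.30, limma adjusted p = 0.000917), although the near-identical Cyp2a4, at 0.334 FPKM, could share its reads. Abcb1a, a drug efflux pump, rose from 0.372 ± 0.121 to 1.63 ± 0.795 FPKM (1.78, adjusted p = 0.00120) and, like Per3, passed the filter only through the groups where it was high. Lipoprotein lipase (Lpl) rose from 1.37 ± 0.464 to 3.57 ± 1.23 FPKM (1.31, adjusted p = 0.00170). Nr1i3, the drug-sensing receptor CAR, rose from 7.14 ± 1.21 to 9.26 ± 1.01 FPKM (0.38, adjusted p = 0.0326). The fifth, Cyp7a1, the rate-limiting enzyme of bile acid synthesis, had a log2 fold change of 0.80 (adjusted p = 0.0428) and is named after its value was seen. Acot1, an acyl-CoA thioesterase, fell from 94.7 ± 31.4 to 48.5 ± 18.3 FPKM (-0.98, limma adjusted p = 0.0186, or 0.0517 under a common sum per mouse).

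Between SZ-A and HFD livers 0 of the 13 target genes were called with limma, and 2 had an unadjusted p under 0.05, Lpl (log2 fold change -1.10, adjusted p = 0.0865) and Cyp2b10 (-1.17, adjusted p = 0.269). Cyp2b10 was near the floor in both groups, with means of 0.945 FPKM in HFD and 0.405 FPKM in SZ-A livers. It passed the filter only through NC livers (mean 4.13 FPKM, median 0.140 FPKM), where NC1 (8.18 FPKM) and NC5 (16.2 FPKM) were high. Against NC, Nr1i3 (0.69, limma adjusted p = 0.0274) and Abcb1a (1.19, adjusted p = 0.0268) were called in SZ-A livers, and Cyp2a5 was not (1.56, adjusted p = 0.0603). Abcb1a (0.372 FPKM in NC and 1.04 FPKM in SZ-A livers) passed the filter only through the HFD and SZ-A groups, which favours a higher call. SZ-A5 was the lowest SZ-A mouse for 11 of the 14 target genes, among them Cyp2a5 (59.8 FPKM against 197 to 437 in the other SZ-A mice) and Nr1i3 (6.57 against 11.6 to 14.6 FPKM). NC5 was the lowest NC mouse for 6 of the 14. Over all tested genes SZ-A5 was lowest in 24.6% and NC5 in 30.8%.

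Fasting and glucocorticoid genes were set beside these genes because the mice were fasted and both signals are known to act on the liver clock. Of 11 fasting response genes, all tested, 7 were called lower and 0 higher in HFD than in NC livers, against 9.49% of all tested genes called lower, with a median log2 fold change of -0.87, and Acot1 and G6pc (named after its value was seen) were not called under a common sum per mouse. Pck1, the gluconeogenic enzyme, fell from 1167 ± 238 to 525 ± 95.6 FPKM (-1.15, SE 0.15, limma adjusted p = 0.000254). Cpt1a, the carnitine palmitoyltransferase of fatty acid oxidation, fell by 0.66, Angptl4 by 0.66, Tat by 1.47 and Acot1 by 0.98 on the log2 scale. Between SZ-A and HFD livers 0 of 11 were called and 5 had an unadjusted p under 0.05, of which Pck1, Cpt1a, Tat and Angptl4 had positive log2 fold changes (0.54, 0.22, 0.65 and 0.29) and Pdk4 a negative one (-0.96), with limma adjusted p from 0.133 to 0.317. Against NC, 4 were called lower in SZ-A livers (Pck1, Cpt1a, Pdk4 and Angptl4, the last not under a common sum, adjusted p = 0.108) and 0 higher. Of 10 glucocorticoid response genes 2 were called lower in HFD than in NC livers, against the same 9.49%, Tat and Tsc22d3 (-0.77, limma adjusted p = 0.0327, or 0.109 under a common sum), with a median of -0.35. In the comparisons of SZ-A with HFD and with NC 0 of these 10 were called, and 2 had an unadjusted p under 0.05 in each. The lists share Per1, Tat, Acot1 and Fgf21, and the part of these signals in the levels of the clock output genes was not tested.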

How the data were processed

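Liver RNA was poly-A selected, made into NEBNext Ultra libraries and sequenced in pairs on a NovaSeq. Per the labels, the authors aligned reads to mm10 (GRCm38) with HISAT2 2.0.5 and counted with featureCounts 1.5.0-p3; strand is not stated. The deposited unit is FPKM per gene. FPKM times gene length gave whole fragments for 100% of values within 0.05 of a fragment. The authors tested counts; here limma 3.58.1 in R 4.3.3 was fitted with an intensity trend to log2(FPKM + 0.1) of 10216 genes with a mean of at least 1 FPKM, for each pair of groups alone, without covariates. Correlations used 100000 resamples of mice within groups. Replicates are separate mice by their titles, and no pair was a duplicate. Scripts were tested on simulated data. All 9 genes are named; of each other list, up to 5 genes with the smallest p in HFD against NC and up to 5 in SZ-A against HFD; and the 5 highest and 5 lowest r with Dbp. Some genes of the lists are not reported here and were left out of the list counts. The genes and lists were chosen with earlier results of these data known. Promoters are RefSeq windows (GRCm38.p6), checked against GENCODE transcripts. Pseudocounts, filters, scalings, weights, a replicate block, voom and leaving out each mouse were tried.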

Additional observations from a re-analysis of the deposited data

Results flagged for a closer look

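The highest or lowest mouse of each group was compared with its nearest neighbour on the log2(FPKM + 0.1) scale for each of the 9 genes in the 3 groups, 27 sets in all. In 5 sets the gap to the nearest mouse, as a share of the whole range of the group, was above Dixon's 95% critical value for 6 samples, and chance gives about 1 set in 20. All 5 were the low value of SZ-A5. The share was 0.894 for Usp2 (1.18 FPKM against 10.6 FPKM in the next mouse), 0.749 for Wee1 (1.37 against 5.84 FPKM) and 0.747 for Dbp (7.22 against 29.4 FPKM). It was 0.717 for Tef (10.8 against 24.7 FPKM) and 0.695 for Ciart (0.481 against 3.57 FPKM). The genes are correlated between mice, so these are not 5 separate events. SZ-A5 had 17191725 fragments on genes and 3.54% of them on mitochondrial genes, within the range of the other SZ-A mice for the mitochondrial share. What set this mouse apart was not tested.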

How the results depend on the processing

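The counts of called genes held within 1.5 times under all planned settings in HFD against NC and SZ-A against HFD, except without NC4. Leaving out 1 mouse at a time gave 2 to 5 called genes in HFD against NC, 0 in SZ-A against HFD and 2 to 7 in SZ-A against NC (7 without SZ-A5), and 13 to 25 correlated pairs (13 without SZ-A5). In SZ-A against NC 6 genes were called with sample weights, 6 with a replicate block and 7 with NC5 and SZ-A5 both left out; the last setting, which gave 8 correlated pairs, was chosen after seeing the data. Replicate numbers share no animal, and deviations of same-numbered mice correlated by -0.117 to 0.292, so the block is not a pairing; in HFD against NC it gave 2 called genes, and in SZ-A against HFD 0. With 1 mouse left out the difference of Bhlhe41 was 0.37 to 0.81 in HFD against NC and 0.34 to 0.53 in SZ-A against HFD. In SZ-A against NC it was 0.81 to 1.25. In the same order it was 0.16, 0.18 and 0.33 with a pseudocount of 1, and 0.84, 0.52 and 1.36 with one of 0.01. For a common sum per mouse, Bhlhe41 levels were multiplied by the scale of each mouse, while those of the other genes were divided by it. The Bhlhe41 values so obtained (0.45, 0.58 and 1.03) are therefore not common-sum values. Whether Bhlhe41 passes under that scaling was not tested. These settings for Bhlhe41 were added after seeing the data. A common sum moved the median of all genes by 0.19 in HFD against NC and -0.17 in SZ-A against HFD. Bhlhe41, multiplied by the scale, moved the opposite way in both, from 0.59 to 0.45 and from 0.44 to 0.58. No conclusion is drawn from these Bhlhe41 values. Under a common sum per mouse 4 log2 fold changes of SZ-A against HFD changed sign: Dbp (-0.0052), Tef (-0.026), Nfil3 (-0.0067) and Wee1 (-0.011). With 1 mouse left out Nfil3 ranged from -0.019 (without HFD1) to 0.39 in that comparison, with -0.015 without SZ-A5, and from -0.30 to 0.11 (without SZ-A2) in SZ-A against NC, with 0.049 without NC5. Of 602 fold changes under alternatives, 561 kept direction and side of the threshold, 18 newly passed, 15 no longer passed and 8 changed sign. Several alternatives alter only the test, the filter or the threshold and leave the fold change itself as it was. Part of this agreement in direction was therefore fixed in advance. With no filter on low values, Bhlhe40 was lost in HFD against NC (adjusted p = 0.0898) and Dbp in SZ-A against NC (0.114), and Bhlhe40 was also lost under the block in HFD against NC (0.0700). Over all genes, SZ-A against HFD gave 15 calls, 0 with no filter or with the block, 26 at a mean of at least 5 FPKM, 27 with voom, 35 with all mice in one fit, 218 under a common sum and 233 with sample weights. SZ-A against NC gave 981 calls, 564 with no filter and 1682 with sample weights, and HFD against NC 2062 and 1271 at a mean of at least 5 FPKM. Counting error limits Bhlhe41 (7 to 103 fragments) and Ciart (from 3 fragments) most.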
